A study of Mus musculus with 2 samples.

Results

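Mir191 and Mir425 are neighbouring microRNA (miRNA) genes on mouse chromosome 9 that are processed from hairpins of the same strand and carry unrelated seeds. They were taken by gene name from GENCODE M21 among the miRNA genes counted in the adrenal gland, 2 genes of 2202. Short RNAs of the size of mature miRNAs had been sequenced from adrenal glands of female B6CASTF1/J mice, hybrids of a laboratory and a wild-derived strain, aged 36 days. The labels name no treatment. There was 1 group of 2 libraries, numbered as biological replicates 1 and 2 and described as separately numbered females, although the labels give both the same donor identifier. No other tissue, sex, age or genotype was included. The values below therefore describe levels within the gland and the spread between these 2 libraries, which may be partly technical.

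A miRNA hairpin is cut from a longer transcript in the nucleus and trimmed in the cytoplasm, and a short strand is loaded into an Argonaute protein. Bases 2 to 8 of that strand, the seed, choose most target messages by pairing with them. The cluster of miR-191 and miR-425 is known from many tissues, and miR-191 is often used as a reference gene in RT-qPCR. In human cells miR-425-5p was reported to act on the message of NPPA, the precursor of atrial natriuretic peptide, a hormone that restrains aldosterone release from the adrenal cortex.

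The mature sequences are shown because the seeds set the targets of each gene and show how little the members have in common. They were taken from RefSeq (GRCm38.p6) and are written 5′ to 3′ with the seed in capitals.
mmu-miR-191-5p: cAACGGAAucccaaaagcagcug
mmu-miR-191-3p: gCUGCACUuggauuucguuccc
mmu-miR-425-5p: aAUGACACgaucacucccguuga
mmu-miR-425-3p: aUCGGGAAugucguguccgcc
mmu-miR-489-3p: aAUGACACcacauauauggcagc

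None of the 4 seeds of the pair is shared within it. Among the 1738 mature entries of the RefSeq table, neither miR-191 seed was found at another gene, and the seed of miR-425-5p was found only in miR-489-3p, from Mir489 on chromosome 6. Past the seed those 2 miRNAs have the same base at 4 of 15 positions, counted from base 9 without gaps. Mir489 had 0 sense counts in replicate 1 and 0 in replicate 2, which allows a level of up to 0.556 and 0.990 CPM. CPM, the normalised read count, divides the sense reads of a gene by all sense reads given to miRNA genes in that library, times 1000000.

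The hairpins are shown because the tables count reads per hairpin, with both arms together. The mature arms are in capitals, the 5p arm before the 3p arm.
Mir191: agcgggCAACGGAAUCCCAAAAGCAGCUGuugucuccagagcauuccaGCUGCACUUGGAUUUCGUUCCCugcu
Mir425: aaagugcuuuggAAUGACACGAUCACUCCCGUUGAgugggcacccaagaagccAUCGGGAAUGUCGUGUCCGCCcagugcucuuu

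The hairpin of Mir191 is 74 bases long and lies at chr9:108568319-108568392 on the plus strand (mm10). The hairpin of Mir425 is 85 bases long and lies at chr9:108568777-108568861 on the same strand, 384 bases further on. The RefSeq and GENCODE hairpins were identical for both genes. Neither hairpin shares a stretch of 20 bases with another annotated miRNA locus, so reads lost to near-identical miRNA copies are less of a limit here than for families with such copies. How many reads came from each arm is not given by the tables.

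The cluster is usually placed in an intron of Dalrd3, which in human cells has been described as a factor needed for methylation of certain tRNAs. The 2 annotations differed on this. In GENCODE M21, which was used for the counts, Dalrd3 begins 1025 bases beyond the end of Mir425, at chr9:108569886-108572774. Both hairpins lie instead within the long noncoding gene 4833445I07Rik (chr9:108567533-108569174, plus strand). They are inside the single exon of its transcript 4833445I07Rik-201. Mir191 is inside the intron of transcript 4833445I07Rik-202, and Mir425 begins 3 bases past the end of that transcript. In RefSeq the Dalrd3 gene begins earlier, at chr9:108567484-108572773, 835 bases before Mir191, and spans both hairpins. Whether the hairpins lie within Dalrd3 therefore depends on the annotation. The RefSeq exons of Dalrd3 were not available, so a place in one of its introns was not checked. Host transcripts were not measured here.

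**Figure D1:**
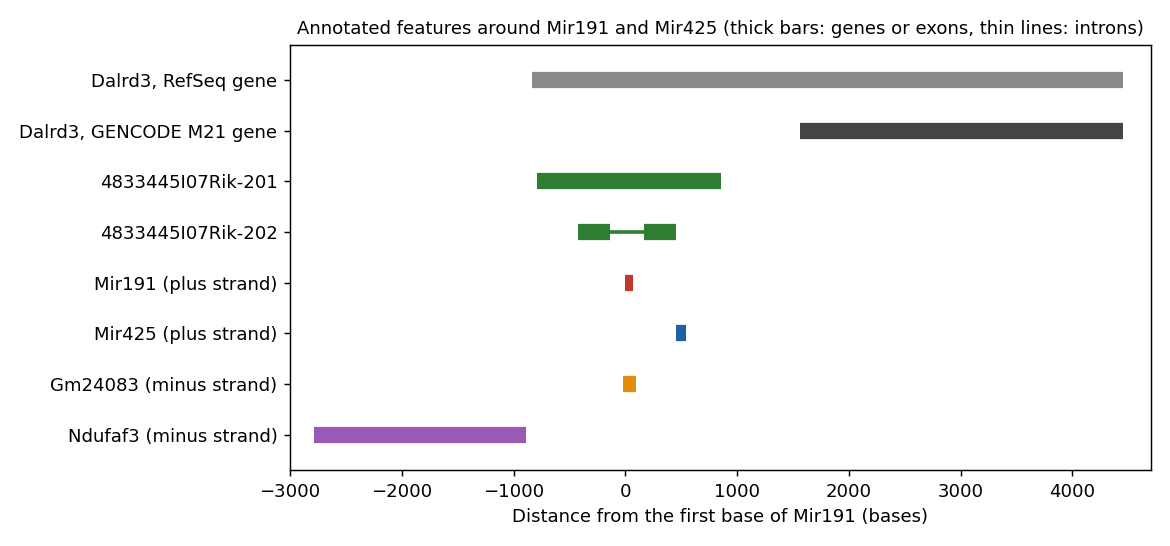
Annotated features around the cluster, by distance in bases from the first base of Mir191. Both hairpins fall inside 4833445I07Rik-201 and inside the RefSeq span of Dalrd3, but ahead of the GENCODE M21 start of Dalrd3, 1567 bases from that first base, and Gm24083 lies across Mir191 on the other strand.

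Replicate 1 held 5397603 sense miRNA counts and replicate 2 held 3029977, a 1.78-fold difference in depth, so the value of 1 count is 0.185 CPM for the deeper library and 0.330 CPM for the shallower. Of the 2202 genes, 339 reached 10 sense counts in each library and are called detected. The list of endocrine and neural miRNAs, chosen with the adrenal medulla in mind, had 5 of 5 genes detected, with a summed level of 32103 CPM in replicate 1 and 25898 CPM in replicate 2. Most of it was Mir375, with 28922 and 22246 CPM, and the other 4 genes together had 3182 and 3652 CPM. No miRNA marker of the adrenal cortex was in the lists, so the label of the tissue was checked only in part. Reads that mapped to several places, 28.5% and 30.6% of all reads, are in no gene's count.

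Mir191 was an abundant gene of the gland and its normalised read count differed little between the libraries. It had 39792 sense counts in replicate 1, or 7372 CPM (95% Wilson interval 7300 to 7445), and 23047 in replicate 2, or 7606 CPM (7509 to 7705). The mean was 7489 ± 166 CPM (SD, n = 2), a coefficient of variation of 2.21%. This made up 0.749% of the sense miRNA counts and was 57.5 times the median level of the detected genes, 130.2 CPM. Intervals cover only the counting error of reads within a library. PCR copies of a molecule cannot be told from separate molecules, so the counting error of molecules may be larger.

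Mir425 was expressed at a much lower level and differed more. It had 5291 sense counts in replicate 1, or 980 CPM (954 to 1007), and 1488 in replicate 2, or 491 CPM (467 to 517). The mean was 736 ± 346 CPM (SD, n = 2), a coefficient of variation of 47.0% and 5.65 times the median of the detected genes. Replicate 1 was therefore the library with the higher level of Mir425, while Mir191 was slightly higher in replicate 2. Together the genes held 0.835% of the sense miRNA counts in replicate 1 and 0.810% in replicate 2. Most of this sum came from Mir191, which gave 88.3% of the pair's reads in replicate 1 and 93.9% in replicate 2.

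In the order of levels Mir191 ranked 26 by mean CPM, with rank 30 in replicate 1 and rank 25 in replicate 2. Of the 338 other detected genes, 23 had a higher CPM than Mir191 in each library, 308 had a lower CPM in each, and 7 were higher in a single library. Mir151 was just ahead of it, with 7575 CPM in replicate 1 and 7684 CPM in replicate 2, and Mir99b just behind, with 8500 and 6239 CPM. Mir151 was thus higher than Mir191 by a little in each library, whereas Mir99b was higher in replicate 1 and lower in replicate 2. For both neighbours the range over the libraries met that of Mir191.

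Mir425 ranked 89 by mean CPM, with rank 84 in replicate 1 and rank 97 in replicate 2. Of the other detected genes, 78 had a higher CPM than Mir425 in each library, 237 had a lower CPM in each and 23 were higher in a single library. Taken over the libraries, the ranges of 50 genes met that of Mir425, against 8 for Mir191. Its neighbours in the order were Mir34a, a target gene of p53, with 980 CPM in replicate 1 and 552 CPM in replicate 2, and Mir106b of the Mcm7 cluster, with 1163 and 295 CPM. Mir34a was higher than Mir425 in each library, by little in replicate 1, and Mir106b was higher in replicate 1 and lower in replicate 2.

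Likeness was measured as the distance between genes in log2 CPM of the 2 libraries, over the detected genes, and rests on these 2 values alone. Nearest to Mir191 was Mir151, at a distance of 0.04, followed by Mir99b (0.35), Mir652 (0.40), Mir29a of the collagen-targeting miR-29 family (0.40) and Mir411 of the imprinted Dlk1-Dio3 locus (0.47). Of these, Mir151 and Mir411 kept nearly the same CPM in both libraries, as Mir191 did. Mir411 shares at least 20 bases with another locus, so its level is uncertain. Nearest to Mir425 were Mir92-1 of the miR-17-92 cluster (0.12), Mir34a (0.17), Mir149 (0.28), Mir1839 (0.30) and Mir671 (0.37), all with a higher CPM in replicate 1. Mir92-1 also shares at least 20 bases with another locus.

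**Figure D2:**
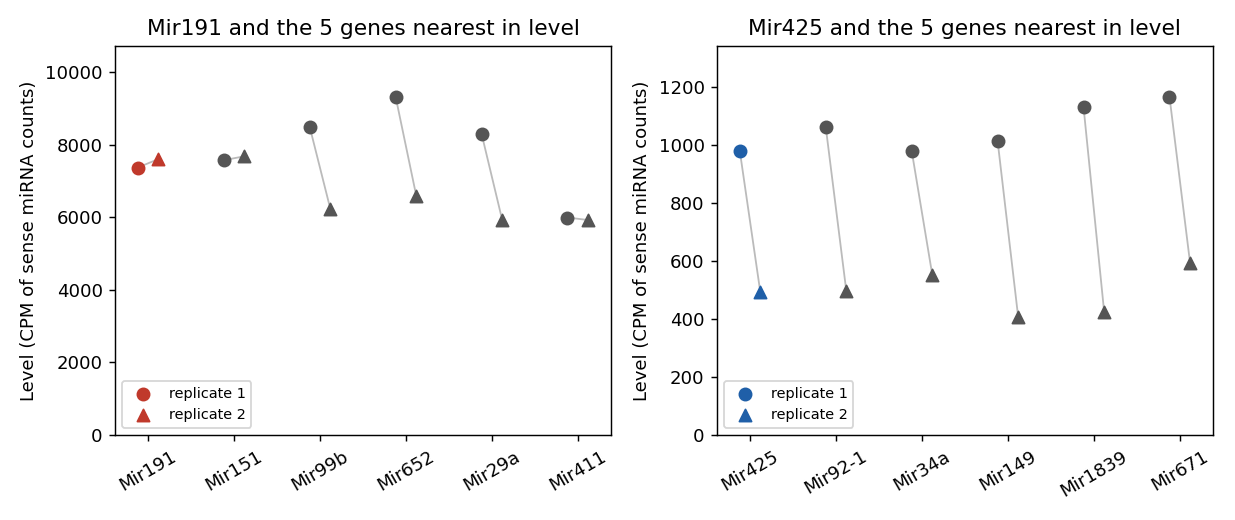
Level in CPM of Mir191 and Mir425 (coloured) and of the 5 genes nearest to each (grey), with replicate 1 as a circle on the left and replicate 2 as a triangle on the right. Mir191 stands at 7372 and 7606 CPM, while Mir425 stands at 980 and 491 CPM.

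Strand decided whether Mir191 was counted at all. Each library was counted in 3 ways in the deposited tables, ignoring strand, sense and antisense, and Mir191 had 0 reads in each library where strand was ignored, against 39792 and 23047 on the sense strand. Gm24083, an annotated miRNA gene of 120 bases at chr9:108568295-108568414, lies on the minus strand and reaches 24 bases beyond Mir191 on its left and 22 bases on its right. A read of Mir191 counted without strand falls in both genes and is set aside as ambiguous. In the antisense column Gm24083 held 39792 counts in replicate 1 and 23047 in replicate 2, the same numbers as Mir191 on its sense strand, and its own sense count was 0 in both. Neither gene had a read from the minus strand.

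The reads of Mir191 made up 3.30% of the ambiguous reads without strand in replicate 1 and 4.46% in replicate 2. Mir425, with no gene across from it, had 5291 counts in replicate 1 and 1488 in replicate 2 whether or not strand was used, and 0 antisense counts. Of the 339 detected genes, 28 (8.26%) have an annotated miRNA gene on the other strand, and all 28 had under 5% of their sense counts when strand was ignored. Sense counts reached 1000 in both libraries for 112 genes, and Mir191 was among 10 of these that had 0 counts without strand in both. Without strand the order within the cluster would be the reverse, with Mir191 listed at 0 and Mir425 detected.

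**Figure D3:**
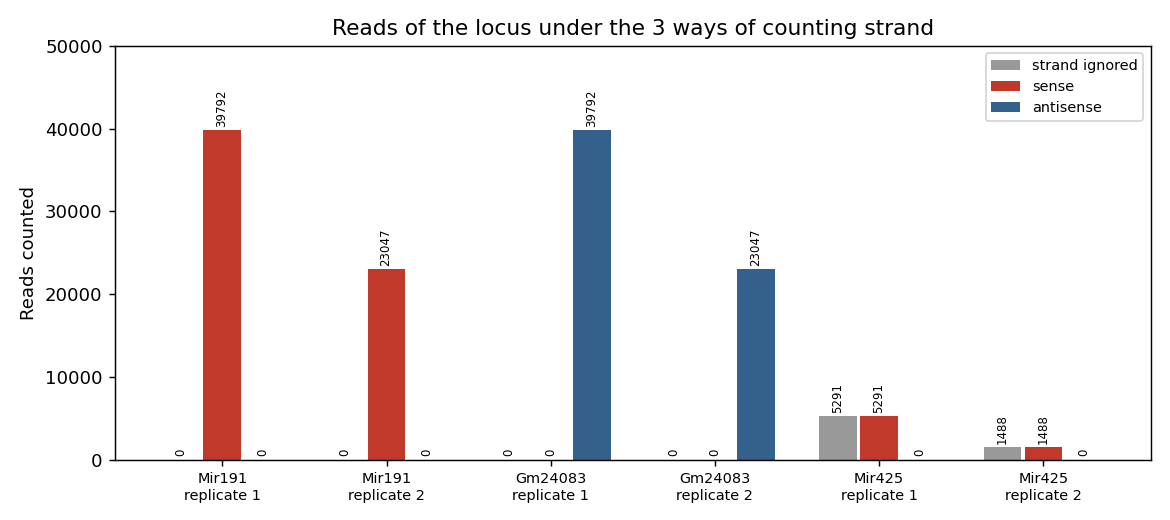
Reads counted for Mir191, for Gm24083 on the opposite strand and for Mir425 in each library, with strand ignored (grey), on the sense strand (red) and on the antisense strand (blue). The 39792 and 23047 sense reads of Mir191 reappear as antisense counts of Gm24083, and only Mir425 keeps its reads when strand is ignored.

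The comparison of the libraries asked how evenly each member was measured. Ratios are replicate 1 over replicate 2, scaled by TMM (trimmed mean of M values), over the 434 genes with at least 10 counts in the 2 libraries together. Mir191 had a log2 ratio of -0.35, 1.27-fold lower in replicate 1 (edgeR TMM sizes, exact two-sided binomial test, adjusted p = 2.16e-180). Mir425 had a log2 ratio of 0.69, 1.62-fold higher in replicate 1 (same test, adjusted p = 6.51e-65). Both members were called, but so were 58.5% of all genes tested, 30.2% towards replicate 1 and 28.3% towards replicate 2. With a minimum of 2-fold added, neither member was called, and 19.6% of the genes tested were, 11.5% towards replicate 1 and 8.06% towards replicate 2. The binomial test sets the libraries against counting error only, and at this depth even small ratios pass it.

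The scaling moved the ratios by 0.30 on the log2 scale. With total counts in place of TMM, Mir191 had a log2 ratio of -0.05, 1.03-fold lower in replicate 1 (exact binomial test, adjusted p = 0.000345), and Mir425 had a log2 ratio of 1.00 (adjusted p = 1.07e-136). Calls were then made for 62.7% of the genes tested, and they split as 189 (43.5%) towards replicate 1 and 83 (19.1%) towards replicate 2, against 131 and 123 with TMM. Of the 433 other genes, 12 had a smaller absolute log2 ratio than Mir191 with total counts, and 120 had a smaller one with TMM. The near-constant level of Mir191 is thus a statement about its share of the counts, and is not independent of the scaling. For Mir425, 302 genes had a smaller absolute log2 ratio with total counts and 253 with TMM.

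Set against the spread between the libraries over all genes, neither ratio stood out. The pooled coefficient of variation (edgeR's common dispersion) was 41.6%. It was fitted to these same 2 libraries, members included, so few genes could be called by it. With it, the log2 ratio of Mir191 had a 95% interval of -2.01 to 1.31 and that of Mir425 had -0.97 to 2.36 (adjusted p = 0.963 for each). By this rule 0.23% of the genes tested were called, 1 gene of 434, and 29 had an unadjusted p below 0.05.

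**Figure D4:**
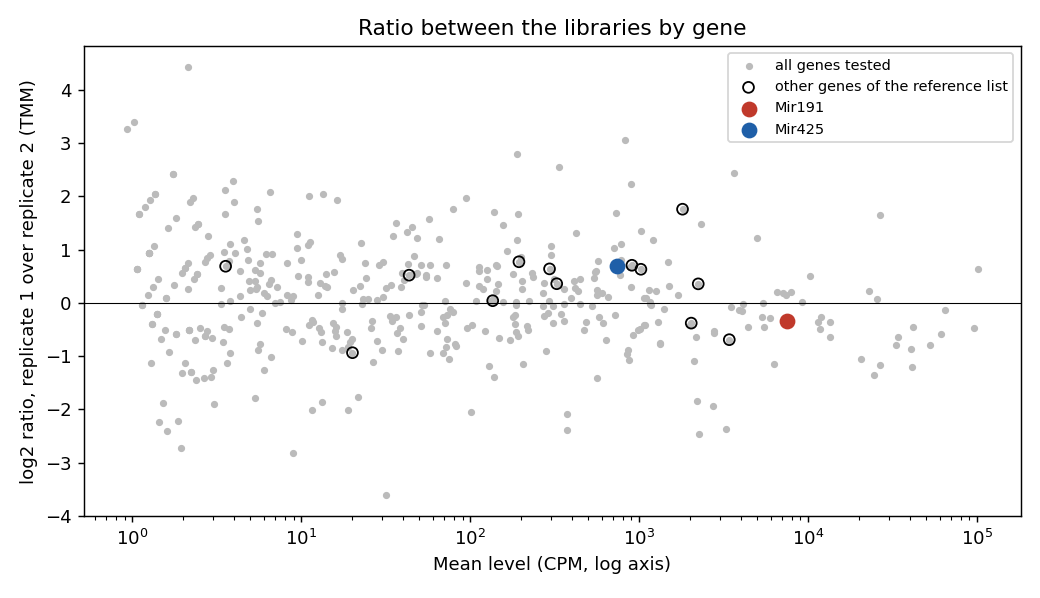
Log2 ratio of replicate 1 over replicate 2 with TMM against mean CPM on a log axis, for the 434 genes tested, with Mir191 (red), Mir425 (blue) and the other genes of the reference list (open circles). Mir191 lies at -0.35 and Mir425 at 0.69, both inside the cloud of genes of like abundance.

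The ratio of Mir191 to Mir425 within a library needs no scaling between libraries. Mir191 had 7.52 counts for each count of Mir425 in replicate 1 (95% interval 7.31 to 7.74) and 15.5 in replicate 2 (14.7 to 16.3). Since each read covers about a whole mature miRNA, levels were not divided by length, and per base of hairpin these ratios were 8.64 and 17.8. Mir191 was the higher gene in both libraries, with a mean log2 ratio of 3.43 ± 0.74 (SD, n = 2), or 10.8-fold. Neighbouring hairpins of the same strand thus gave read counts about an order of magnitude apart. Yields of library preparation that depend on sequence were not measured, and any such yield common to both libraries would not appear in this SD.

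The ratio of Mir191 to Mir425 was 2.06-fold higher in replicate 2 (Fisher's exact two-sided test, p = 2.74e-137). The 95% interval of this fold, from a normal approximation to the log odds ratio, was 1.94 to 2.19. The difference in log2 ratio, replicate 1 minus replicate 2, was -1.04. With the pooled spread between libraries in place of counting error its 95% interval was -3.39 to 1.31. The difference thus did not exceed what that spread allows for a pair of genes that vary independently between libraries. Whether Mir191 and Mir425 vary independently was not tested. Over 284 genes with at least 100 counts in the libraries together, which are not independent, the log2 ratio was higher at higher hairpin GC content (Spearman's rho 0.348). The hairpins of Mir191 and Mir425 have nearly the same GC content, 54.1% each, so removing the trend shifts both by about the same amount. With the trend removed the difference was -1.040, against -1.042 without this step. The part of base composition in the difference was not tested.

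Other clustered genes give a scale for this. Of 91 pairs of adjacent miRNA genes on the same strand with starts within 10 kb and at least 10 counts for each gene in each library, 90 besides Mir191 and Mir425, 27 (30.0%) changed their log2 ratio between the libraries by more than 1.04. The median change was 0.68. The levels of the genes differed by more than those of Mir191 and Mir425 in 34 of the 90 pairs, and the median log2 difference in level was 2.56. The same gene was the higher in both libraries in 80 of the 91 pairs, Mir191 and Mir425 among them. In 41 pairs, again with Mir191 and Mir425, the genes had ratios of opposite sign with TMM. At the Mcm7 cluster, named after its values were seen, the log2 ratio of Mir93 to Mir106b was 1.35 in replicate 1 and 3.72 in replicate 2, a larger change than that of Mir191 to Mir425. Pairs of the same cluster share genes and are not independent.

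**Figure D5:**
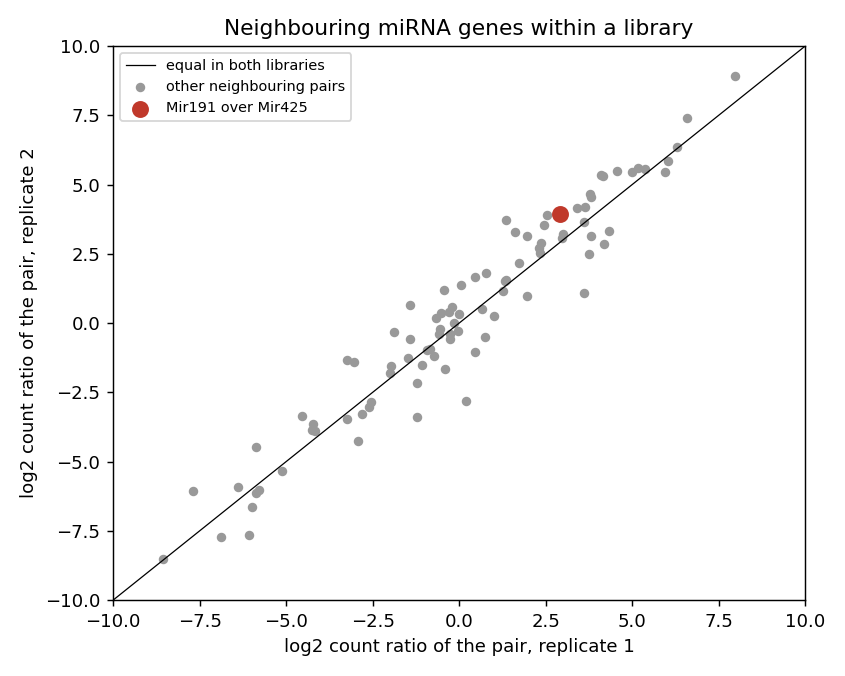
Log2 count ratio of adjacent miRNA genes in replicate 1 and in replicate 2, for 91 pairs ordered along the chromosome, with Mir191 over Mir425 in red. The red point lies at 2.91 and 3.95, above the line of equal ratios by 1.04, with other pairs farther from the line on both sides.

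A list of 15 miRNA genes that are used as or proposed for RT-qPCR reference genes, Mir191 and Mir425 among them, was set beside the pair. Of the list 13 were called by the binomial test with TMM, 9 towards replicate 1 and 4 towards replicate 2. Of all genes tested 58.5% were called, 30.2% and 28.3% in these directions. That share includes many genes of low count, whereas all of the list but Mir103-1 reached 100 counts in the libraries together. With a minimum of 100 counts, and TMM factors fitted to those genes, 230 of 284 genes were called. The median log2 ratio of the list was 0.52, against 0.06 over all 434 genes. Directions and this median were set against all genes tested only, low counts included. The 4 called towards replicate 2 were Mir191, Mir361, Mir93 and Mir103-2. Which gene of the list was most even depended on the scaling. In CPM it was Mir191, with a coefficient of variation of 2.21%, and with TMM it was Mir186, with a log2 ratio of 0.04 (exact binomial test, adjusted p = 0.755), against -0.35 for Mir191. Mir361, an X-linked gene, had 1978 CPM in replicate 1 and 2089 CPM in replicate 2, a coefficient of variation of 3.88%. Mir186 had 152 and 120 CPM, and Mir93 of the Mcm7 cluster had 2956 and 3874 CPM.

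The rest of the list had a higher CPM in replicate 1, apart from Mir103-2. Mir484 had 1210 CPM in replicate 1 and 602 CPM in replicate 2, and Mir25 had 387 and 202 CPM, ratios close to that of Mir425. Mir423 differed most, with 2913 CPM in replicate 1 and 699 CPM in replicate 2, a log2 ratio of 1.76 with TMM. Mir320 had 2738 and 1736 CPM. The 6 genes for miR-16, miR-24 and miR-103 share at least 20 bases with another locus, so their levels are uncertain. Mir16-1, whose miRNA acts on cell-cycle messages, had 1343 and 704 CPM and Mir16-2 had 398 and 252 CPM. Mir24-2 had 263 and 125 CPM, Mir24-1 had 55.6 and 31.4 CPM, and Mir103-2 had 15.7 and 24.4 CPM. Mir103-1 had 26 counts in replicate 1 and 7 in replicate 2 and was not detected by the rule above.

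Since each coefficient of variation rests on 2 libraries, the genes of the list were not ranked as references by it. Lists of miRNAs of other cell types also differed between the libraries, apart from that of striated muscle, which was nearly even. Summed, the red-cell genes (3 of 3 detected) had 1210 CPM in replicate 1 and 576 in replicate 2, and the white-cell genes (5 of 5) to 1928 and 2617 CPM. The endothelial genes (2 of 2) summed to 133214 and 69289 CPM and the smooth muscle genes (2 of 2) to 30240 and 59237 CPM. The hepatocyte gene had 1503 and 146 CPM, the kidney and gut genes (2 of 4 detected) summed to 136 and 57.4 CPM and the epithelial genes (4 of 7) to 873 and 3729 CPM. Of the epithelial sum Mir203 alone gave 822 CPM in replicate 1 and 3691 CPM in replicate 2, and the other 6 genes together gave 51.5 and 38.0 CPM. Mir126a gave nearly all of the endothelial sum, and Mir143 most of the smooth muscle sum. The striated muscle genes (1 of 5) summed to 476 and 495 CPM, with Mir1a-1 and Mir133a-2 at 0. Of this sum Mir206 alone gave 474 CPM in replicate 1 and 494 CPM in replicate 2. The rest of that list together gave 2.04 and 0.99 CPM. The part of these lists in the ratios of Mir191 and Mir425 was not tested, and in whole tissue fewer cells of a type and less RNA per cell cannot be told apart.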

How the data were processed

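The authors deposited raw read counts per miRNA gene for each library, and the notes deposited with them give mm10 and GENCODE M21. Not given in the sources used here are the aligner, the counter and adapter trimming. The 3 count columns have no header and were read as unstranded, sense and antisense. With the summary entries each adds up to the same total, as 3 counts of the same reads would. Equal totals do not tell which column is which. Summary entries that name no gene (unmapped, several places, no feature, ambiguous) were left out of library sizes; sense counts took 38.6% and 40.2% of all reads. All 2202 identifiers matched GENCODE M21.

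Members and lists were chosen with earlier results of these data known. There is no second group, so edgeR's quasi-likelihood test had no contrast. Ratios used TMM sizes (edgeR 4.0.16, R 4.3.3), a prior of 0.5 counts, and exact binomial tests (scipy 1.17.1) with Benjamini-Hochberg adjustment over 434 genes and a threshold of 0.05. For the pooled spread, 1 dispersion was fitted to all genes with edgeR and no group term, and its p came from a normal approximation to the log ratio over all genes. A count of 0 was given a limit of 3 counts. Named were the members, genes across or within 10 kb of them, the 5 genes nearest each in level, the reference list and genes that share a seed. DESeq2 1.42.0 gave alternative size factors and dispersions. Of the steps, only the binomial and pooled-spread tests were run on simulated counts with planted changes. The spread in that simulation was taken from these same libraries. Figures were made with matplotlib 3.10.9.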

Additional observations from a re-analysis of the deposited data

How the results depend on the processing

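The direction of both library ratios held in each alternative that gave a value, from -0.49 to -0.05 for Mir191 and from 0.55 to 1.00 for Mir425. Both calls were lost when the spread between libraries replaced counting error. With edgeR's pooled spread the log2 ratios were -0.35 and 0.69 (adjusted p = 0.963 for each), and with DESeq2's dispersions and size factors they were -0.42 and 0.62 (adjusted p = 0.998 for each). The difference in the log2 ratio of Mir191 to Mir425, -1.04, had a 95% interval of -3.39 to 1.31 with the pooled spread and was no longer called. Genes called numbered 1 with the pooled spread (Mir26a-1, named after its values were seen), 0 with DESeq2's dispersions (14 with an unadjusted p below 0.05) and 85, against 254, with a 2-fold minimum, which was added after seeing the data. The mean level of Mir191 was 0 CPM without strand, 6378 for each 1000000 reads mapped to 1 place and 8339 without the most abundant gene, all by construction. Leaving out either library put the level of Mir191 between 7372 and 7606 CPM, that of Mir425 between 491 and 980 CPM, and the log2 ratio of Mir191 to Mir425 between 2.91 and 3.95. The reference list without genes that have copies elsewhere had 8 of 9 genes called. Of all genes tested 58.5% were called, and with a minimum of 100 counts, and TMM factors fitted to those genes, 230 of 284 were. The ratio of Mir191, and the ratio of Mir191 to Mir425, had no value without strand. No paired analysis was possible because the series has 1 group. The depth of replicate 2 limits low genes such as Mir103-1 more than the members.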
